A study of Mus musculus with 19 samples.

Results

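Traditional small RNA-seq libraries of mouse sperm were compared between DCHP-exposed and control males. They were chosen by the word traditional in their names, and make up 10 of the 19 libraries of the series, 5 control and 5 DCHP. The other 9 are PANDORA-seq libraries, in which the RNA was treated before library construction with AlkB, an enzyme that removes methyl groups, and T4 polynucleotide kinase, which repairs RNA ends. All sires were wild-type C57BL/6J males on a chow diet, 8 weeks old when the exposure began. Control males received corn oil, and DCHP males dicyclohexyl phthalate, a phthalate plasticizer, at 10 mg/kg body weight, each by oral gavage every day for 4 weeks. Sperm came from the cauda epididymis at the end of treatment, when the males had also been mated, and was kept in somatic cell lysis buffer before RNA extraction. The paper describes a gel cut of RNA of 15 to 50 nt and the NEBNext small RNA kit under PANDORA-seq. It gives no separate protocol for the traditional libraries. GEO's labels name DCHP as the treatment of all 19 libraries, so control or DCHP status was read from the library names. Neither the labels nor the study's methods give a sequencing batch or say whether a traditional library is 1 mouse or a pool. A figure caption of the paper calls the PANDORA-seq columns biological replicates of mouse, and does not speak of traditional libraries there. P-values therefore measure the spread between these libraries only.

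MicroRNAs (miRNAs) are short RNAs that are cut from hairpins and guide Argonaute proteins to messenger RNAs, mainly through the seed, the bases 2 to 8 of the mature strand. Sperm carries miRNAs made in the testis, such as the families miR-34 and miR-449 and a cluster of testis miRNAs on the X chromosome, and gains others, including let-7 and miR-10 members, on its way through the epididymis. The miR-200 family is typical of epithelial cells, and miR-122 is the main miRNA of hepatocytes.

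The mature strands on which the results below turn are shown here with the seed in capitals. They were read from RefSeq (GRCm38.p6) by gene symbol, which matched 21 of 24 miRNAs looked up. Mir122, Mir143 and Mir1948 are described by name. Among the most abundant miRNAs, a shared seed groups let-7a, let-7c and let-7f, and another groups miR-10a and miR-10b:
let-7a-5p: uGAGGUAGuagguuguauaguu
let-7c-5p: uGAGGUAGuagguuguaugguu
let-7f-5p: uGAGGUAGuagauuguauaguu
miR-10a-5p: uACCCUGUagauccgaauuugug
miR-10b-5p: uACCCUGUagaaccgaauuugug
miR-148a-3p: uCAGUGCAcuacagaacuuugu
miR-21a-5p: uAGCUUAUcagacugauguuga
miR-881-3p: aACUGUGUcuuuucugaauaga
The 5 members of the miR-200 family carry 2 seeds that differ by 1 base, the first shared by miR-200b, miR-200c and miR-429 and the second by miR-200a and miR-141:
miR-200b-3p: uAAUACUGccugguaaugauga
miR-200c-3p: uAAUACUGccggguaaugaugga
miR-429-3p: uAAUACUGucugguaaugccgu
miR-200a-3p: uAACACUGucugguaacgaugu
miR-141-3p: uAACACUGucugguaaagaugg
The other miRNAs with low p-values have seeds that differ from each other:
miR-181d-5p: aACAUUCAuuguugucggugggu
miR-146b-5p: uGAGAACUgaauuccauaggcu
miR-196b-5p: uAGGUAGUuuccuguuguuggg
miR-872-5p: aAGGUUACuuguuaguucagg
miR-206-3p: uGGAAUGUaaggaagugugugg
miR-425-5p: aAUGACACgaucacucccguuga
The last pair are miRNAs of liver that moved together with Mir122 across libraries:
miR-192-5p: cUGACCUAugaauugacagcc
miR-194-5p: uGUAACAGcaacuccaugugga
For all 21 printed strands, the most frequent read of 20 to 24 nt in the libraries began at the first base of the RefSeq strand. Mir429 (chr4:156053905-156053987, minus strand), Mir200a (chr4:156054896-156054985, minus strand) and Mir200b (chr4:156055681-156055750, minus strand) are neighbours inside introns of Ttll10, and Mir141 (chr6:124717914-124717985, minus strand) and Mir200c (chr6:124718322-124718390, minus strand) are neighbours inside an intron of the antisense gene Gm15884. Mir146b (chr19:46342762-46342870, plus strand) lies in an intron of Mfsd13a, Mir181d (chr8:84178716-84178787, minus strand) in an intron of Nanos3 and Mir872 (chr4:94665157-94665237, plus strand) in an intron of Ift74. Mir196b (chr6:52230081-52230165, minus strand) lies in exonic sequence of Hoxa9.

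The first question was how much of each library is miRNA, and whether the groups start from the same miRNA total. Libraries held 21588335 to 52099239 reads of 15 to 45 nt, of which 979480 to 8194275 were miRNA reads, meaning reads of 20 to 24 nt that matched a GENCODE hairpin in sense, with no more than 1 mismatch. These were 4.30, 15.7, 7.0, 4.04 and 4.89% of all reads in control libraries 1 to 5 and 4.54, 4.54, 5.90, 7.40 and 9.26% in DCHP libraries 1 to 5. Control 2 stood far above the rest. The means were 7.19 ± 4.91% and 6.33 ± 2.02% (SD, n = 5 each), a difference within the spread of the libraries (two-sided exact permutation test, p = 0.857). The miRNA share of all reads, DCHP minus control, differed by -0.863 percentage points, and by 1.27 without control 2. Reads that matched no small RNA gene used here made up 84.9% and 85.8% on average. The genes used include mitochondrial but not nuclear tRNAs, and what the unmatched reads are was not tested. An exact test of 5 against 5 cannot go below p = 0.00794.

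Mir122 made up a very different share of the miRNA reads from library to library. It took 23.6, 42.9, 2.60, 1.89 and 4.39% in controls 1 to 5 and 1.64, 21.1, 12.6, 4.00 and 1.35% in DCHP 1 to 5. Controls 1 and 2 and DCHP 2 were above 20%, DCHP 3 was intermediate, and the other 6 libraries were below 5%, so that the groups overlapped almost fully. Group means were 15.1 ± 18% and 8.13 ± 8.57% (SD, n = 5 each, exact permutation p = 0.444), and the difference of the Mir122 share of miRNA reads, DCHP minus control, was -6.95 percentage points with and 0.0111 without control 2. Mir192 and Mir194, which liver also makes in large amounts, were high in largely the same libraries. Mir192 stood at 17869, 29044, 1105, 1245 and 2936 reads per 1000000 miRNA reads (RPM) in the controls and at 1301, 4226, 7385, 3080.1 and 1178 RPM in the DCHP libraries. For Mir194 the values were 3457, 6519, 199.8, 187 and 671 RPM and 221, 754, 1412, 636 and 235 RPM. Both are highest in controls 1 and 2 and then in DCHP 3. Over the 10 libraries, with Mir122 left out of the total, log2 RPM of Mir192 followed that of Mir122 with Pearson's r = 0.95 and Spearman's rho = 0.89, and Mir194 with r = 0.94 and rho = 0.88. Permutation p-values were 5e-05 and 0.0001 for r and 0.000980 and 0.00157 for rho. Adjusted over these 2 relations they were 0.0001 for each r and 0.00157 for each rho, and without controls 1 and 2, the libraries farthest from the median, r was 0.91 and 0.88. The 3 liver miRNAs together summed to 2.03% to 46.5% of miRNA reads in controls and 1.49% to 21.6% in DCHP libraries, and all 3 were lower in DCHP, 1 of them at an unadjusted p below 0.05 (0.817% of all tested were lower at that p), with a median log2 fold change of -1.60 against 0.16 over all 367 tested miRNAs. Without control 2 the median of the 3 was -0.75. Their part in the results below was not tested beyond leaving Mir122 out of the total, or leaving out the 3 libraries above 20%.

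**Figure D1:**
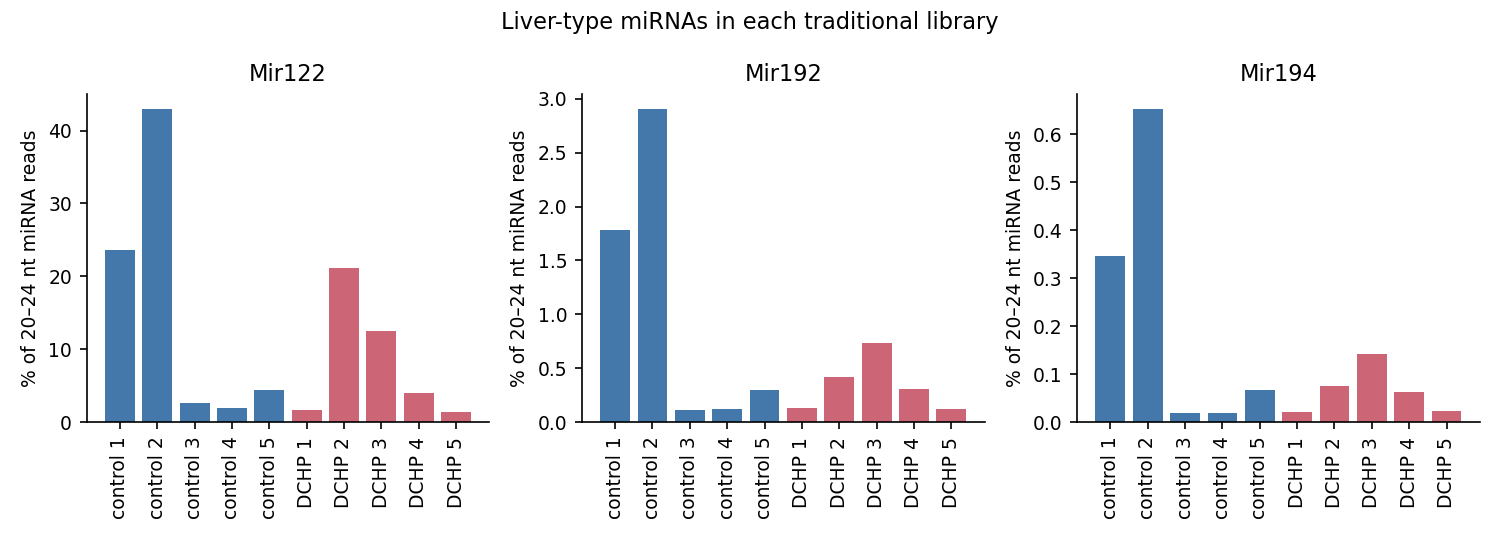
Share of the 20 to 24 nt miRNA reads (%, linear axes from 0) taken by Mir122, Mir192 and Mir194 in each library, control in blue and DCHP in red. Controls 1 and 2 have the tallest bars for all 3 miRNAs, and for Mir122 DCHP 2 follows at 21.1% and DCHP 3 at 12.6%.

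Sperm was checked against markers of germ cells and of other cells that a sperm preparation could hold. These lists were chosen with earlier results of these data known. Of 20 germ cell miRNAs, 18 were found in all 10 libraries, and together they made up 1.42% to 6.39% of miRNA reads in controls and 4.22% to 8.26% in DCHP libraries, lowest in control 2. By library the sums were 3.93, 1.42, 4.97, 6.14 and 6.39% in controls and 8.26, 4.22, 6.54, 4.85 and 5.16% in DCHP libraries. Controls 3 to 5 lay within the range of the DCHP libraries. Of the 17 tested, 16 were higher in DCHP, 3 of them at an unadjusted p below 0.05 (5.45% of all 367 tested miRNAs were higher at that p), with a median log2 fold change of 0.54 against 0.16 over all tested. Most of all tested miRNAs were also higher, and most of the 17 are X-linked testis miRNAs, so they are not separate support. In bulk RNA, fewer cells of a type and less RNA per cell cannot be told apart. The list for epididymal epithelium is the miR-200 family, which was chosen with these results known and is described by library further on. Its 5 members were all higher in DCHP, 5 of 5 at an unadjusted p below 0.05, with a median of 1.18. DCHP 4 and 5 were the highest libraries for each, so the 5 are not separate support. Blood miRNAs were scarce: the 6 listed, among them Mir451a of red cells and Mir223 of neutrophils, summed to 663 to 994 RPM in controls and 467 to 911 RPM in DCHP libraries, and 4 of 6 were lower in DCHP with none at an unadjusted p below 0.05. Mir451a itself was highest in controls 2 and 1 (363 and 179.6 RPM) and in DCHP 3 (136 RPM), the libraries in which Mir192 was highest. Mir144 and Mir142 were highest in the same libraries. Mir486, the most abundant of the list, was lowest in control 2 (266 RPM) and highest in DCHP 2 (710 RPM). Mir223 was highest in DCHP 5 (48.1 RPM) and Mir150 in DCHP 2 (90.9 RPM). Mir143, the defining miRNA of smooth muscle, was present throughout, while Mir124a of neurons was at 0 in 9 of 10 libraries. Mir9, the other listed miRNA of neurons, was found in all 10, at 76.8 to 445 RPM in controls and 271 to 506 RPM in DCHP libraries. Striated muscle miRNAs (Mir1a, Mir133a, Mir206) summed to 1190.4 to 4666 RPM in controls and 2077 to 4809 RPM in DCHP libraries. All 3 were higher in DCHP, 1 of them (Mir206) at an unadjusted p below 0.05, with a median log2 fold change of 0.60.

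A short list of miRNAs dominated every library. The 10 most abundant took 76.4% to 79.6% of miRNA reads in controls and 73.1% to 78.6% in DCHP libraries. Mir148a, which is abundant in several epithelia, came first at 18.2% of miRNA reads on average, with 17.9, 8.98, 19.6, 19.3 and 20.2% in controls and 19.1, 15.1, 19.6, 23.5 and 18.5% in DCHP libraries. Control 2 was the lowest, and the other libraries of both groups overlapped. The Hox cluster miRNAs Mir10a and Mir10b behaved alike: Mir10a held 11.1, 5.78, 18.9, 17.1 and 17.9% in controls and 15.2, 11.9, 13.3, 13.2 and 9.73% in DCHP libraries, and Mir10b 9.49, 4.84, 15.1, 14.4 and 14.2% and 12.1, 9.34, 11.3, 11.1 and 7.73%. Controls 3 to 5 were the highest of all libraries for both. The let-7 members are regulators of cell differentiation. Mirlet7c ranged from 1.33% to 4.56% in controls, while DCHP 1 to 5 held 3.5, 4.74, 1.58, 3.31 and 10.01%. DCHP 5 was the highest and DCHP 3 among the lowest of the 10 libraries for Mirlet7c and for Mirlet7a (5.23% and 1.37%). Mir881, of the X-linked testis cluster, ranged from 0.544% to 2.67% in controls and from 1.53% to 3.83% in DCHP libraries. None of the 10 passed the test described next, and unadjusted p-values (edgeR's quasi-likelihood test) were between 0.135 for Mirlet7c and 0.882 for Mir21a. Mir21a turned from 0.05 to -0.24 on the log2 scale when Mir122 was left out of the total.

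Single miRNAs were then compared between the groups, with the miRNA total as library size. No miRNA passed an adjusted p below 0.1 with a fold change above 2: edgeR's quasi-likelihood test called 0 of 367 tested miRNAs (0%), and 23 (6.27%) had an unadjusted p below 0.05. DESeq2 also called 0, with 32 at an unadjusted p below 0.05. Of the 23, 20 were higher (5.45%) and 3 lower (0.817%) in DCHP. The lowest adjusted p was 0.243, for Mir141 and Mir429. Since Mir122 varied so widely, the test was repeated with Mir122 left out of the total. It again called 0, with 22 (5.99%) at an unadjusted p below 0.05, 19 higher (5.18%) and 3 lower (0.817%), and the lowest adjusted p was 0.526. The median log2 fold change of all tested miRNAs, DCHP over control, moved from 0.16 to 0.03, so that 227 and 191 of 367 were higher in DCHP; with TMM normalization it was -0.19 and 131 were higher. Log2 fold changes below are given with the full miRNA total, beside which these medians stand. Of the hairpins with reads, 1036 had under 50% of their reads in the 20 to 24 nt range, 142 of them among the 367 tested, and all 1036 together carried 0.588% to 2.08% of the miRNA reads of a library. Some of the 142 had nearly equal values in every library, such as Gm22174, Gm22460 and Gm22625 (4.01, 4.39 and 4.02 RPM in control 2). Shares and medians over the 367 therefore rest on hairpins that are not all separate measurements or clear miRNAs.

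**Figure D2:**
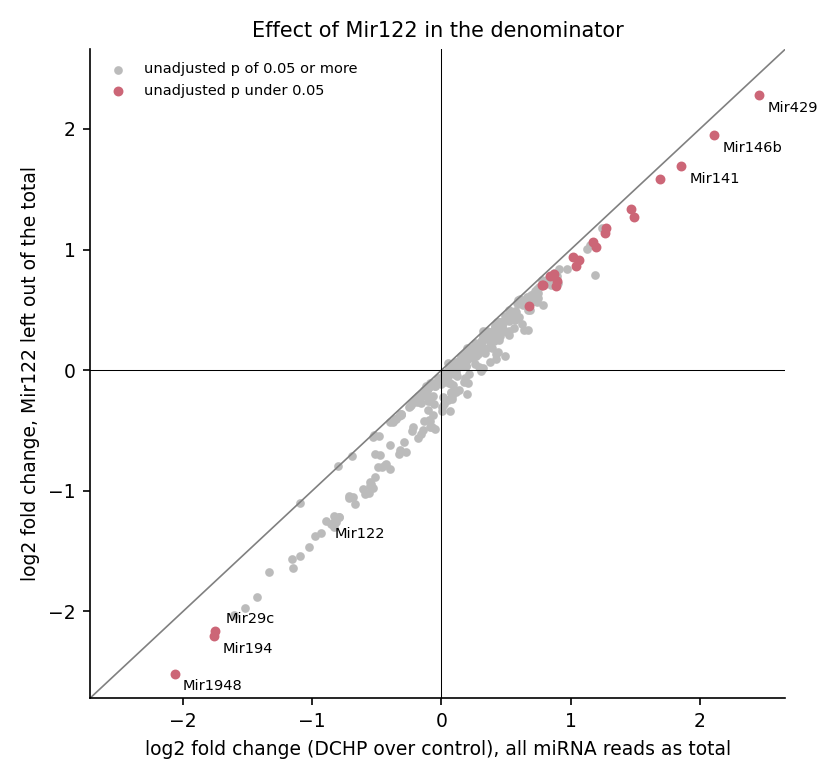
Log2 fold change (DCHP over control) of each of 367 miRNAs with all miRNA reads as the total (horizontal axis) and with Mir122 left out of the total (vertical axis). Red points had an unadjusted p under 0.05 with the full total, the grey line marks equal values, and most points lie below it: the median is 0.16 on the horizontal and 0.03 on the vertical axis.

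The miRNAs with the lowest p-values shared a pattern across libraries. In 8 of the 10 with at least 100 reads per library on average and the lowest p, DCHP 4 and DCHP 5 were the highest of all 10 libraries, and so they were in 11 of the 23 at an unadjusted p below 0.05. Over all 367 tested miRNAs this share was 8.45%, or 5.18% with Mir122 left out of the total. Choosing miRNAs by the p of the same groups favours high DCHP libraries, so these counts are a description and nothing is read from the difference. Control 2 was the lowest library for 8 of the 10, and for 56.7% of all tested, or 39.2% of all tested with Mir122 left out of the total. Mir429, of the miR-200 family, stood at 104, 63.6, 136, 99.7 and 109 RPM in controls 1 to 5 and at 147, 135, 165, 456 and 1916 RPM in DCHP 1 to 5. DCHP 5 lay far above and DCHP 4 clearly above the rest, while DCHP 1 to 3 were close to the highest control. Its log2 fold change 2.46 ± 0.64 (SE) had an adjusted p of 0.243 (edgeR), and without DCHP 5 the log2 fold change was 1.14. Mir146b, a miRNA induced in inflammation, stood at 407, 194.5, 490.2, 429 and 418 RPM and 413, 457, 375, 1179.8 and 5952 RPM. For Mir146b only DCHP 5 and DCHP 4 left the range of the controls, and the log2 fold change 2.11 ± 0.66 (SE) had an adjusted p of 0.491 (edgeR), with 0.65 left without DCHP 5. Both have 1 library that decides the size of the difference.

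The remaining low p-values belonged to miRNAs of varied roles. Mir181d, of a family best known from lymphocytes, was at 30.1, 24.9, 36, 29.1 and 30.5 RPM in controls and 48.8, 36.8, 58.3, 94.8 and 105 RPM in DCHP libraries. Every DCHP library exceeded every control, with DCHP 4 and 5 at the top (log2 fold change 1.20 ± 0.37 (SE), edgeR adjusted p = 0.491). Mir872 also kept the groups apart, at 103, 73.5, 74.0, 109 and 113 RPM against 195, 128, 147, 229.6 and 179 RPM, with DCHP 4 and DCHP 1 highest (log2 fold change 0.89 ± 0.31 (SE), edgeR adjusted p = 0.609). Mir196b, from the Hoxa cluster, and Mir425 had log2 fold changes of 1.27 and 1.04 with overlapping groups. Mir206, a muscle miRNA, reached 580.3 and 780.1 RPM in DCHP 4 and 5 against 31.3 to 261 RPM in controls. DCHP 1 to 3, at 176, 150 and 59.4 RPM, lay within the range of the controls. Mir1948 was the only one of the 10 that was lower in DCHP: 59.4, 144, 3.74, 3.64 and 16.9 RPM against 3.07, 12.3, 30.7, 4.36 and 5.01 RPM. Its high libraries were controls 2 and 1 and DCHP 3, those in which Mir192 was highest, and its log2 fold change of -2.07 went to -0.90 without control 2. The other miRNAs with lower values at an unadjusted p below 0.05 were Mir29c and Mir194, with log2 fold changes of -1.75 and -1.76, both highest in controls 2 and 1, and of -1.07 and -0.79 without control 2. Control 2 was the highest library for 19.3% of all tested miRNAs, or 25.1% with Mir122 left out of the total.

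**Figure D3:**
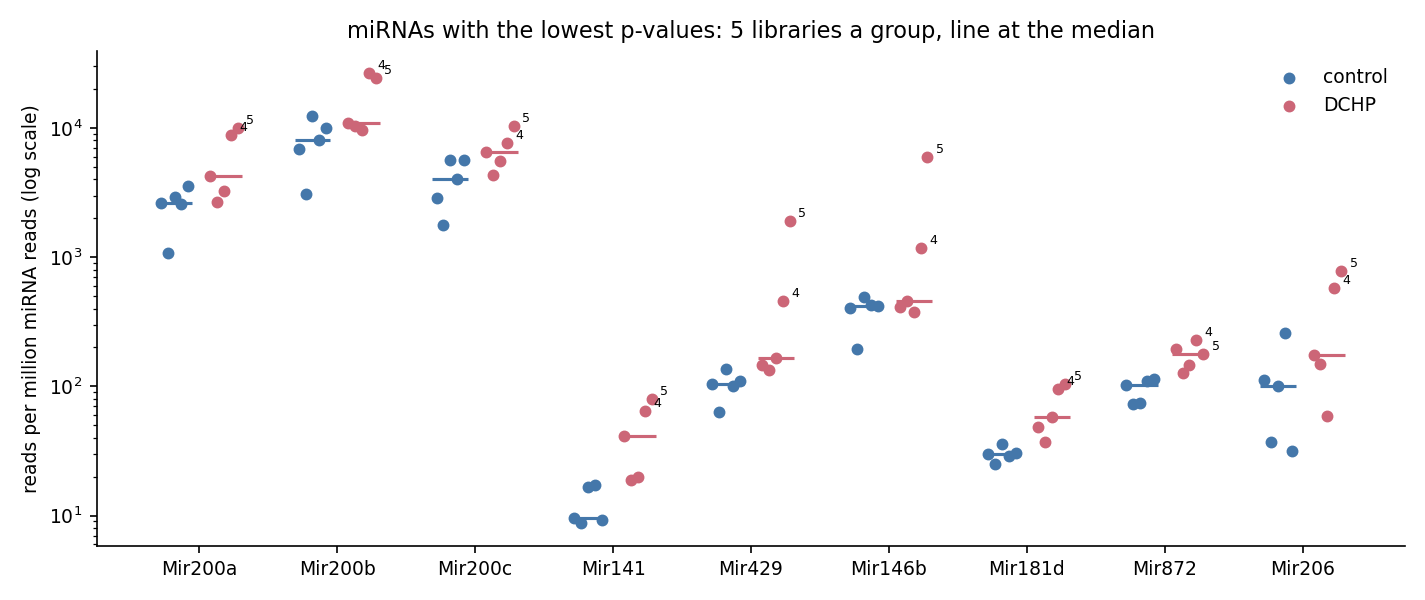
Reads per 1000000 miRNA reads (RPM) (log axis) of the 5 miR-200 family members and of Mir146b, Mir181d, Mir872 and Mir206 in each library, control in blue and DCHP in red, with a line at each group's median and the numbers of DCHP libraries 4 and 5. These 2 libraries are the highest of each DCHP group except for Mir872, where DCHP 5 is below DCHP 1.

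The miR-200 family, which keeps epithelial cells from losing their junctions by repressing Zeb transcription factors, was the marker list for epididymal epithelium, chosen with these results known. All 5 members were higher in DCHP, 5 of 5 at an unadjusted p below 0.05, a class that held 5.45% of all tested miRNAs, and their median log2 fold change was 1.18 against 0.16 over all tested (1.06 against 0.03 without Mir122 in the total). Mir200b, the most abundant, was at 6864, 3071, 12283, 8120.5 and 10065 RPM in controls and 10917, 10311, 9721, 26512 and 24347 RPM in DCHP libraries. Mir200a was at 2614, 1081, 2935, 2569 and 3583 RPM and 4247, 2662, 3235, 8754 and 9991 RPM. For both, DCHP 4 and 5 reached well above the highest control, and DCHP 2 and 3 lay within the range of the controls. Mir200c stood at 2865, 1765, 5621, 4032 and 5614 RPM and 6507, 4333, 5532, 7677 and 10304 RPM. Mir141, with far fewer reads, was at 9.56, 8.73, 16.6, 17.1 and 9.31 RPM and 41.4, 18.9, 19.7, 64.1 and 79.1 RPM, and its groups did not overlap. Only 34.7% of the reads on the Mir141 hairpin were 20 to 24 nt long. Summed, the family took 1.25, 0.599, 2.10, 1.48 and 1.94% of miRNA reads in controls and 2.19, 1.75, 1.87, 4.35 and 4.66% in DCHP libraries, with a log2 fold change 1.01 ± 0.39 (SE) and an adjusted p of 0.704 over 284 families and single miRNAs (edgeR).

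Values of these miRNAs were also read in the PANDORA-seq libraries that carry the same numbers, a choice made after the values above were seen. There, Mir429 stood at 60.3, 49.9, 40.6 and 55.6 RPM in controls 1 to 4 and at 40.8, 47.1, 31.9, 161 and 1133 RPM in DCHP 1 to 5, and Mir146b at 0, 87.3, 162 and 100.1 RPM and 40.8, 141, 106, 412 and 4650.2 RPM. DCHP 4 and 5 were the highest libraries of both methods for both miRNAs. Mir122 was the largest in PANDORA-seq control 2 and DCHP 2 (8.21% and 8.33% of miRNA reads) and at most 1.63% in the other 7 libraries. Over the 9 numbers, log2 RPM of Mir122 in the 2 methods gave r = 0.71 (exact permutation p = 0.0317, 0.0444 adjusted over 7 miRNAs) and rho = 0.52 (p = 0.162, adjusted 0.283, exact permutation), and r = 0.64 without controls 1 and 2. Of the other 6 miRNAs, r was 0.95 for Mir429, 0.83 for Mir146b, 0.80 for Mir200b and 0.72 for Mir200a. Without DCHP 4 and 5 these became -0.67, -0.14, -0.0474 and -0.26, so they rest on those libraries and no p is given. For Mir192 and Mir194 r was 0.66 and 0.61, with exact permutation p = 0.0508 and 0.0803 (adjusted 0.0592 and 0.0803), and rho was 0.53 and 0.43 (exact permutation p = 0.148 and 0.250). Without controls 1 and 2, r was 0.44 and 0.49. PANDORA-seq libraries held only 33142 to 98585 miRNA reads, so that 1 read was worth 10.1 to 30.2 RPM.

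Groups that do not overlap at all were rare. With the full miRNA total, every DCHP library was above every control for 5 of 367 miRNAs (1.36%) and below for 0. These were Mir141, Mir181d, Mir872, Mir471 of the X-linked cluster and Mirlet7i. Without Mir122 in the total, 9 miRNAs (2.45%) lay wholly above and 0 below, and Mirlet7i was no longer among them. Mir34c, which sperm carries into the egg, then stood at 2233, 1173, 2482, 3120.2 and 3052 RPM in controls and 5903, 3387, 3407, 3734 and 4254 RPM in DCHP libraries, DCHP 1 being highest and control 2 lowest. Its log2 fold change was 0.78 ± 0.30 (SE, edgeR adjusted p = 0.559). Mir449a of the same family, at 7.48 to 17.8 RPM in controls, was at 18.1 to 26.7 RPM in DCHP libraries. Mir743b and Mir465d, 2 further miRNAs of the X-linked cluster, and Mir429 completed the 9. Mirlet7i ranged from 6146 to 7163 RPM in controls and from 7895 to 12526 RPM in DCHP libraries with Mir122 in the total, and reached 12174 RPM in control 2 without it.

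Summing reads by family gave no call either. Of 284 families and single miRNAs, edgeR called 0, with 10 (3.52%) at an unadjusted p below 0.05, 9 higher (3.17%) and 1 lower (0.352%), and 0 with 13 (4.58%), 10 higher (3.52%) and 3 lower (1.06%), when Mir122 was left out of the total. DESeq2 called 0 of 284, with 27 at an unadjusted p below 0.05. The median log2 fold change over the 284 was 0.11. Among families of the male germ line, miR-34 and miR-449 together were at 1960.2, 777, 2770.4, 3400.4 and 3628 RPM in controls and 6418, 2990.4, 3582, 4139 and 4765 RPM in DCHP libraries (log2 fold change 0.80 ± 0.39 (SE), edgeR unadjusted p = 0.0523). Of its 4 tested members 3 were higher. DCHP 1 was the highest library and control 2 the lowest. Of 14 listed X-linked testis miRNAs that were tested, 13 were higher, 2 at an unadjusted p below 0.05, with a median of 0.45. Mir465d was not on this list. Over all 367 tested miRNAs, 227 were higher, 5.45% were higher at that p, and the median was 0.16. The sum of the listed X-linked miRNAs took 1.34% to 6.02% of miRNA reads in controls and 3.92% to 7.62% in DCHP libraries. Its log2 fold change of 0.31 became 0.08 without control 2. The let-7 family had 8 of 9 members higher, none at an unadjusted p below 0.05. Its sum was 9.32, 9.19, 13.2, 17.3 and 12.0% in controls and 16.2, 17.3, 8.91, 14.8 and 30.0% in DCHP libraries, where DCHP 5 was the highest and DCHP 3 the lowest of all 10.

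Log2 fold changes below 0 were found for some families, among them families abundant in liver and red cells, without a call. The family of miR-192, miR-194 and miR-215 was at 21337, 35569, 1311, 1436 and 3619 RPM in controls and 1537, 4981, 8800.2, 3752 and 1423 RPM in DCHP libraries, with controls 1 and 2 above all others (log2 fold change -1.63 ± 0.78 (SE), edgeR unadjusted p = 0.0519). Without control 2 it was -0.76. Within this family, Mir215 was higher in DCHP (log2 fold change 0.78). The pair miR-144 and miR-451 of erythroid cells and the miR-29 family had log2 fold changes of -0.96 and -1.02, and their highest libraries were again controls 2 and 1. Without control 2 the values were -0.22 and -0.18. The miR-23, miR-27 and miR-24 family (-0.24) and miR-26 (-0.11) were also highest in controls 2 and 1. So was miR-101, at a mean of 0.447% of miRNA reads in controls and 0.301% in DCHP libraries. None of the 22 listed families passed the threshold. The miR-10 family (2 of 2 members lower, log2 fold change -0.16), the miR-183 cluster (-0.19) and miR-30 (-0.05) were close to 0. The Dlk1-Dio3 list, mostly imprinted miRNAs made from the maternal chromosome, had 15 of 19 tested members higher with a median of 0.20, near that of all miRNAs. The list also counts Mir342 and Mir345 (0.41 and 0.42), which are not taken here as imprinted members.

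Small RNA genes other than miRNAs, at all lengths from 15 to 45 nt and per miRNA read, gave the only calls. Of the 746 genes tested, 2 are nevertheless annotated as miRNA, among them Gm24105, and neither was called. At an unadjusted p below 0.05 were 31 of 746 genes (4.16%), 28 higher (3.75%) and 3 lower (0.402%). EdgeR called 5 (0.670%), all higher in DCHP, while without the 3 libraries above 20% Mir122 it called 15, 4 higher and 11 lower, with 2 of the 5 among them. The 5 were the small nucleolar RNAs (snoRNAs) Snora65, Gm24613, Snord83b and Snord47 and the mitochondrial glutamate tRNA gene mt-Te. With Mir122 left out of the total 2 (0.268%) were called, Snora65 and Gm24613, and 27 (3.62%) had an unadjusted p below 0.05, 24 higher (3.22%) and 3 lower (0.402%). With all reads as the total edgeR called 0, with 54 at an unadjusted p below 0.05, and with TMM 0, with 38. DESeq2 called Gm22667 higher and Gm22551 lower and none of the 5. When only reads that match a single gene were counted, edgeR called 0 of 396, with 21 at an unadjusted p below 0.05. Snord83b was not called there either, although all 1436 distinct sequences matching it matched no other gene. Each of the 5 rested on 1 or 2 DCHP libraries. SnoRNAs guide the chemical modification of ribosomal RNA: those of the H/ACA class, as Snora65, guide pseudouridylation, and those of the C/D class, as Snord83b and Snord47, 2'-O-methylation. Snora65 was at 5.63, 3.08, 13.8, 4.55 and 5.29 RPM in controls and 6.14, 212, 55.0, 2.66 and 7.32 RPM in DCHP libraries (log2 fold change 3.10 ± 0.61 (SE), edgeR adjusted p = 0.000344). DCHP 2 and then DCHP 3 stood apart, and the call was lost without DCHP 2 or without control 2 (log2 fold change 1.45 and 2.87). Gm24613 is no independent finding, since 123 of the 124 distinct sequences matching it also matched Snora65 and their reads were divided equally.

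The tRNA gene mt-Te followed the same libraries, at 649.5, 287, 686, 734 and 371 RPM in controls and 728, 6594, 1854, 428 and 479 RPM in DCHP libraries (log2 fold change 1.89 ± 0.49 (SE), edgeR adjusted p = 0.0201). DCHP 2 was highest and DCHP 3 next, while DCHP 1, 4 and 5 lay within the range of the controls. Of the 21 mitochondrial tRNAs tested, 20 were higher, 3 at an unadjusted p below 0.05 (3.75% of all 746 genes were higher at that p). Their median was 0.56 against 0.35 over all 746 genes, most of which were also higher. The C/D snoRNAs were carried by DCHP 5. Snord83b stood at 2238, 241, 1655, 1029 and 949 RPM in controls and 599, 1388, 605, 1718 and 18536 RPM in DCHP libraries (log2 fold change 1.90 ± 0.48 (SE), edgeR adjusted p = 0.0201), and without DCHP 5 the log2 fold change was -0.18. Snord47 was at 291, 96.0, 301, 184 and 414 RPM and 313, 346, 279, 218 and 3065 RPM (log2 fold change 1.72 ± 0.49 (SE), edgeR adjusted p = 0.0625), and at 0.17 without DCHP 5. In each of these genes a DCHP library lies below at least 1 control. The call of mt-Te was lost without control 2, control 5 or DCHP 2 (log2 fold change 1.72, 1.77 and 0.68). Control 2, the lowest library for mt-Te per miRNA read, had the highest miRNA share of all reads (15.7%). With all reads as the total, the log2 fold change of mt-Te was 1.61 (edgeR adjusted p = 0.261). The call of Snord83b was lost without control 2, 4 or 5 (1.64, 1.85 and 1.82) as well as without DCHP 5. For Snord47 it was lost without any of controls 1 to 4 (1.76, 1.51, 1.78 and 1.62) or without DCHP 5.

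The most frequent reads that matched Snord83b and Snora65 are shown because these genes carried the calls, and the second also matched 1 other gene. They are given with the motif TGATGA in capitals, the core of the C box of C/D snoRNAs, searched on the sense strand:
Snord83b: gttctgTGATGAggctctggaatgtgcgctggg
Snora65: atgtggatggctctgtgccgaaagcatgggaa
The Snord83b read was found 32486 times in DCHP 5, which is 75.9% of its reads in the 10 libraries, and 361 to 2773 times in each of the others. The Snora65 read was found 85 times in DCHP 2, 38 times in DCHP 3, 12 times in control 3 and at most 4 times in any other library. Of the most frequent reads of the 256 tested snoRNAs, 56 (21.9%) held TGATGA.

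**Figure D4:**
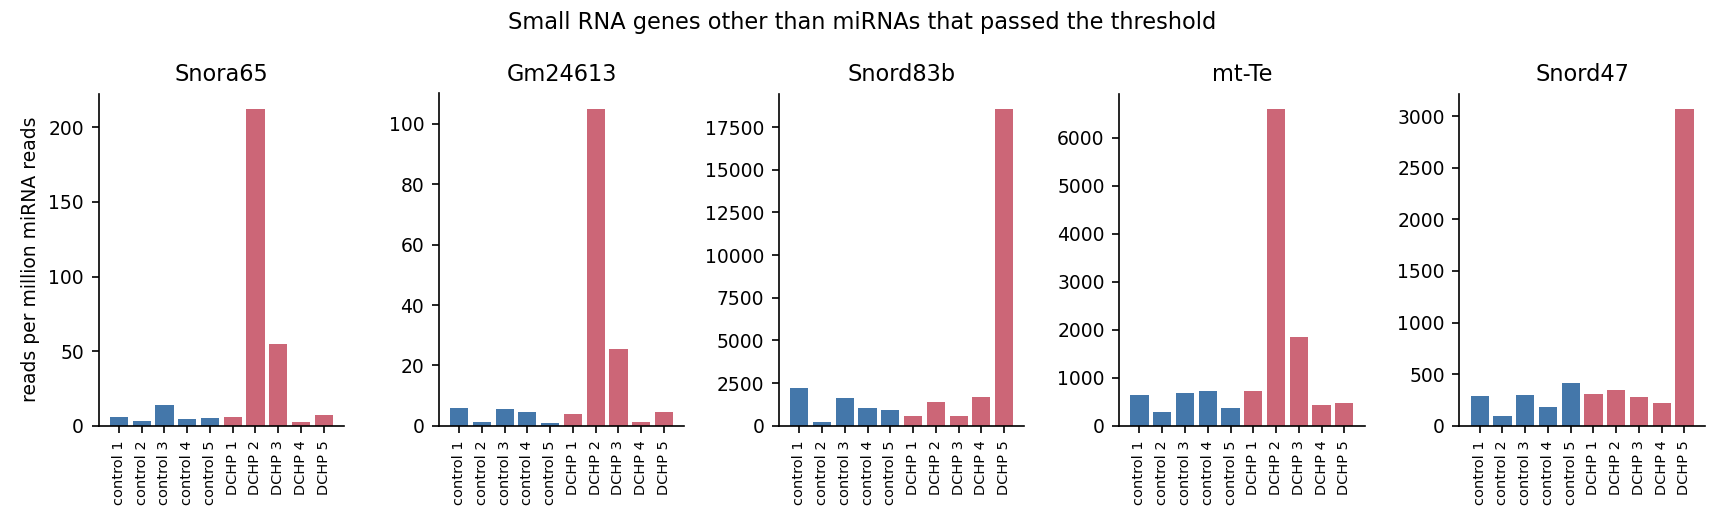
Reads per 1000000 miRNA reads (RPM) (linear axes from 0, a scale for each gene) of the 5 called small RNA genes in each library, control in blue and DCHP in red. Snora65, Gm24613 and mt-Te are high in DCHP 2 and 3, and Snord83b and Snord47 in DCHP 5 alone.

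No gene had all DCHP libraries above all controls (0%), and 1, the predicted gene Gm25789, had all of them below (0.134%). By class, small nuclear RNAs, the RNA parts of the splicing machinery, made up 0.181, 0.144, 0.202, 0.165 and 0.154% of all reads in controls and 0.237, 0.218, 0.175, 0.186 and 0.274% in DCHP libraries. DCHP 1, 2 and 5 exceeded all controls (exact permutation p = 0.0476, 0.238 adjusted over 10 classes). A single class could not pass 0.05 on its own after this adjustment, since an exact p cannot go below 0.00794. SnoRNAs made up 0.203% to 0.391% in controls and 0.220% to 0.733% in DCHP libraries, with DCHP 5 highest, and of 256 tested 158 were higher and 98 lower, with a median log2 fold change of 0.15. Of 288 small nuclear RNA genes tested, 273 were higher and 15 lower in DCHP per miRNA read, with 1 in each direction at an unadjusted p below 0.05, and their median was 0.46. Over all 746 genes, 3.75% were higher and 0.402% lower at that p. Most of the 746 were higher in DCHP, and their median was 0.35, above that of snoRNAs. Many of these are copies of 1 RNA that share reads: 183 of the 746 genes had no sequence of their own, so their counts are not separate measurements. The neuronal RNA gene copy Bc1-ps1 was at 0.00204, 0.00155, 0.00142, 0.000899 and 0.00109% and 0.00217, 0.00171, 0.00228, 0.00147 and 0.00224% of all reads (exact permutation p = 0.0476, adjusted 0.238). The most abundant genes of the classes did not pass the test, among them the mitochondrial 16S rRNA mt-Rnr2 (log2 fold change 0.05 ± 0.46 (SE)), mt-Th (log2 fold change 0.20 ± 0.46 (SE)), 18S rRNA (log2 fold change -0.27 ± 0.46 (SE)) and the signal recognition particle RNA Rn7s1 (log2 fold change 0.48 ± 0.47 (SE)).

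Read length separates miRNAs, which peak at 21 and 22 nt, only in part from other small RNAs. At 21 nt, 75.7% of the reads in controls and 76.0% in DCHP libraries lay on miRNA hairpins on average. At 22 nt these shares were 51.8% and 52.3%, and at 24 nt 4.60% and 3.94%. Each library had a peak at 21 nt, a larger one at 29 to 30 nt and another at 34 nt. Which RNAs make up the 2 longer peaks was not tested. No length passed the test: 0 of 31 lengths from 15 to 45 nt passed an adjusted p below 0.05 (0%), and 0 had an unadjusted p below 0.05 (exact permutation tests). Adjusted over 31 lengths, a single length could not pass on its own, since an exact p cannot go below 0.00794. The lowest p was 0.0794, at 39 nt. Reads of 29 nt were 13.2, 13.8, 12.2, 19.1 and 16.4% of all reads in controls and 16.1, 12.1, 13.5, 15.2 and 9.08% in DCHP libraries, and reads of 20 to 24 nt were 10.1, 20.6, 14.3, 9.05 and 9.41% and 9.67, 10.7, 11.7, 11.9 and 16.2%. Control 2 and then DCHP 5 were the highest for the latter. Reads of 36 to 45 nt, the longest, were 10.9, 11.4, 13.2, 10.6 and 17.7% and 15.2, 16.2, 11.2, 16.7 and 16.8% (exact permutation p = 0.190). Within the miRNA reads, 21 nt was the most common length, with 53.7, 44.2, 59.4, 59.9 and 58.7% in controls and 58.1, 51.8, 55.6, 58.8 and 56.9% in DCHP libraries. Controls 1 and 2 and DCHP 2, the libraries with the most Mir122, were the lowest at 21 nt and the highest at 22 nt. Of the 5 lengths 0 had an unadjusted or adjusted p below 0.05, and exact permutation p-values ranged from 0.786 to 0.921.

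**Figure D5:**
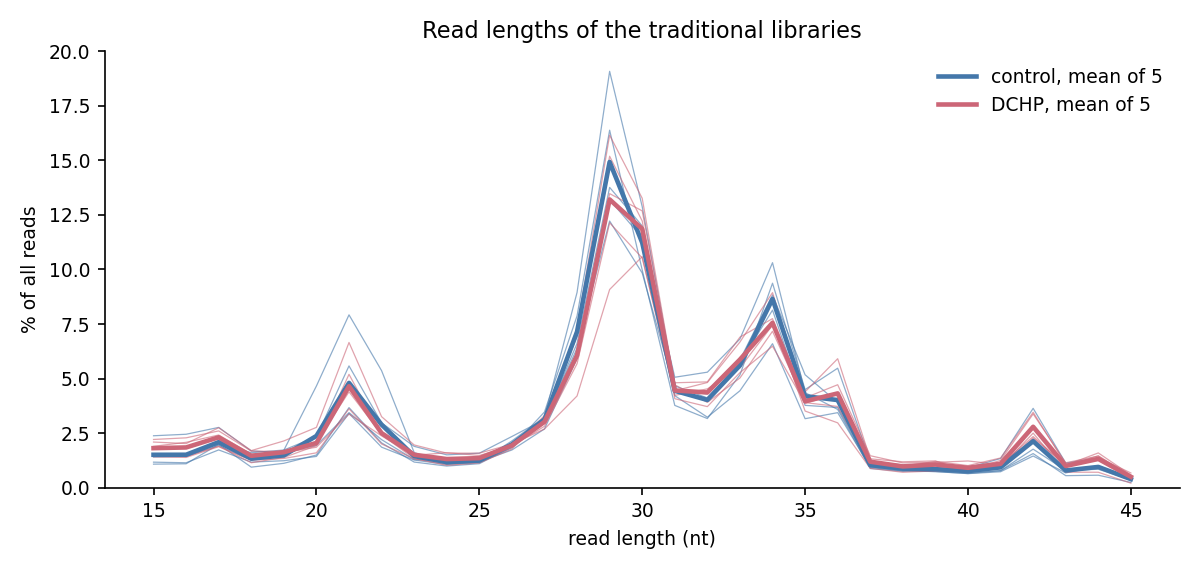
Percent of all reads at each read length (nt) in the 10 libraries, with thin lines for single libraries and thick lines for the means of 5 control (blue) and 5 DCHP libraries (red). The 2 means run together, with the highest point at 29 nt, and single libraries of a group differ more than the means do.

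Whether the difference between DCHP and control depended on the library method was tested in 1 model over all 19 libraries. Of 168 miRNAs with enough reads in both methods, edgeR called 0 for the interaction (0%), with 3 (1.79%) at an unadjusted p below 0.05. The model took the libraries as independent, although same-numbered libraries of the 2 methods deviated together. PANDORA-seq values are thus no separate support. In that method Mir200a was at 90.5 to 639 RPM in controls, 361 to 706 RPM in DCHP 1 to 3, and 2331 and 6658 RPM in DCHP 4 and 5. Mir200b and Mir146b were also highest in DCHP 4 and 5. Mir200b had a log2 fold change of 1.02 in traditional and 1.61 in PANDORA-seq libraries, Mir200a 1.18 and 2.29, and Mir146b 2.11 and 3.40. The differences of these log2 fold changes, traditional minus PANDORA-seq, were -0.59 ± 0.80, -1.13 ± 0.94 and -1.33 ± 1.39 (SE, edgeR interaction, unadjusted p = 0.466, 0.242 and 0.351), which are too imprecise to show that the methods give the same effect. Mir122 differed by -0.79 ± 1.40. Mir429, Mir181d and Mir872 had too few PANDORA-seq reads for this test.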

How the data were processed

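Small RNA-seq was measured in 10 traditional libraries of sperm, 5 a group, and 9 PANDORA-seq libraries. The authors deposited, for each library, a table of the distinct sequences among its cleaned reads with their read counts and lengths. How reads were trimmed is not given in the sources used here. The authors annotated reads with SPORTS1.1, allowing 1 mismatch, and the submitters' processing notes name mm10. From the deposited counts, sequences of 15 to 45 nt were matched here with bwa (version 0.7.19) to GENCODE M21 hairpins and other small RNA transcripts, in sense, with no more than 1 mismatch. Reads that matched several features equally well were divided equally, and 4 hairpins that hold a tRNA locus were left out. Features with at least 10 reads in at least 5 libraries were tested with edgeR (version 4.0.16, R 4.3.3), with the 20 to 24 nt miRNA reads as library size. A call needed an adjusted p (Benjamini-Hochberg) below 0.1 and a fold change above 2. The study's methods name a test for normalized values, and edgeR was used because the files hold counts. Shares and lengths were compared by two-sided exact permutation tests over all regroupings of the libraries, at 0.05.

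Control or DCHP status came from the library names. Named miRNAs were the 10 most abundant, the 10 with the lowest unadjusted p at a mean of 100 reads or more, and Mir122. Other named genes were the called ones and the most abundant of each class. Members and lists were chosen with earlier results of these data known, and Mir141, Mir29c, Mir194, the miRNAs with groups that did not overlap and the PANDORA-seq values were singled out after their values were seen. Same-numbered libraries of the 2 methods deviated together: deviations from group means over 167 miRNAs correlated at 0.248 to 0.571 in 5 of 5 DCHP pairs and 0.294 to 0.780 in 4 of 4 control pairs. For DCHP 3 a library of another number correlated better (0.349 against 0.248). With that pairing as a block, edgeR called 0 interactions of 168, with 0 at an unadjusted p below 0.05.

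Alternatives were Mir122 left out of the total, all reads as total, TMM, DESeq2 (version 1.42.0), no count filter, exact matches, 18 to 26 nt, unshared reads, a replicate block and each library left out. Leaving out the 3 libraries above 20% Mir122, and combinations of Mir122 left out with the block or with leaving out libraries, were added after seeing the data. On simulated 4-fold changes in 36 of 357 miRNAs, edgeR recovered 88.9%, with 5.88% of calls false. For other small RNA genes it recovered 78.4% of 74 changed among 708, with 12.1% of calls false. These rates hold for the simulated 4-fold changes only. In the libraries themselves Mir429 and Mir146b, with fold changes of 5.50 and 4.32, were not called. No library was a copy of another (chi-square per degree of freedom of 104.9 or more over 20 pairs within groups). Reads carry no molecular identifiers, so counts of PCR copies are not counts of molecules.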

Additional observations from a re-analysis of the deposited data

Results flagged for a closer look

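For 67 results, the highest and the lowest library of each group of 5 were compared with the nearest other library. In 16 of the 134 groups the gap took more than 0.71 of the group's range, where chance flags about 1 in 20 groups of independent values. Several of the results were named for low p-values or calls that 1 library carried, and some share reads, so the number says nothing about chance. Most belong to 3 libraries, with 4 in control 2, 5 in DCHP 5 and 4 in DCHP 2. Control 2 stood apart with a low Mir148a (89787 RPM, next lowest control 178833), a low miR-148 and miR-152 family (92125 RPM), a low Mir146b (194.5 RPM, next 407) and a high miRNA share of all reads (15.7%, next 7.0%). These flags were set with Mir122 in the total, of which it took 42.9% in control 2. With Mir122 left out, control 2 was nearer to the other controls. It then held 157337 RPM of Mir148a (next 196598) and 341 RPM of Mir146b (next 437).

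DCHP 5 was far above the other DCHP libraries for Mir429 (1916 RPM, next 456), Mir146b (5952 RPM, next 1179.8) and Mir425 (244 RPM, next 104). It was also far above them for Snord83b (18536 RPM, next 1718) and Snord47 (3065 RPM, next 346). DCHP 2 was far above its group for Snora65 (212 RPM, next 55.0), Gm24613 (105 RPM, next 25.6), mt-Te (6594 RPM, next 1854) and Rn7s1 (11844 RPM, next 5660).

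Among the remaining libraries, control 3 was high for Snora65 (13.8 RPM, next 5.63), control 1 was high for Scarna17 (286 RPM, next 156), and DCHP 3 was low in its share of reads of 36 to 45 nt (11.2%, next 15.2%).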

How the results depend on the processing

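The counts of 0 called miRNAs and 0 called families held under all alternatives but these: without a count filter 6 miRNAs (Mir141, Mir146b, Mir429 and Mir7667 higher, Mir500 and Mir1258 lower) and 4 families or single miRNAs were called, and with exact matches 1 miRNA, Mir141. The 5 calls of other small RNA genes became 2 with Mir122 left out of the total, 0 with all reads as total, 0 with TMM, 2 with DESeq2 (none of them among the 5), 10 without a count filter, 0 with unshared reads only and 15 without the 3 libraries above 20% Mir122 (4 higher and 11 lower, 2 of them among the 5). Leaving out single libraries gave 0 to 6 calls of other small RNA genes (0 without control 2, 2 without DCHP 2, and 3 without control 4, control 5 or DCHP 5), and 0 to 7 with Mir122 left out as well. Control i and DCHP i share only a number: in 0 of 5 pairs did deviations correlate above 0.1 (-0.287 to -0.00045), and 0 libraries correlated best with their own number. With this replicate block, edgeR called 0 miRNAs (15 at an unadjusted p below 0.05), 0 families (7) and 0 other small RNA genes (5), also with Mir122 left out (7, 3 and 6), and miR-26 turned to 0.0136. The difference of the miRNA share of all reads was 1.47 percentage points without the 3 libraries above 20% Mir122, and -1.65 to 1.27 when single libraries were left out. That of the Mir122 share of miRNA reads was -10.3 to 0.0111. Read length calls and the method interaction kept 0 calls under every alternative run.

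Log2 fold changes that turned sign were all of uncalled features except Snord83b, and the cause was not tested. With TMM and DESeq2, Mir148a was -0.13 and -0.0813, Mir143 -0.17 and -0.12, Gm24105 -0.15 and -0.16, and Gm23849 -0.00435 and -0.0231. With Mir122 left out, all reads, TMM and DESeq2, Mir21a was -0.24, -0.35, -0.50 and -0.47, the miR-99 and miR-100 family -0.0541, -0.0883, -0.0703 and -0.29, and the miR-15 and miR-16 family -0.24, -0.36, -0.25 and -0.54. With Mir122 left out, TMM and DESeq2, mt-Rnr2 was -0.00501, -0.24 and -0.25. With DESeq2, the miR-148 and miR-152 family was -0.0510, miR-125 -0.00475, the miR-17-92 and miR-106b-25 clusters -0.0671, Dlk1-Dio3 -0.0518, the miR-143 and miR-145 pair -0.12, miR-181 -0.0363, the miR-221 and miR-222 pair -0.0629 and Rpph1 -0.0279. Over libraries left out singly, ranges were -0.00599 to 0.23 for Mir148a, -1.63 to 0.00195 for Mir122, -0.0487 to 0.32 for Mir21a, -0.000726 to 0.24 for the miR-148 and miR-152 family, -0.11 to 0.0588 for miR-30, -0.00884 to 0.35 for the miR-17-92 and miR-106b-25 clusters, -0.38 to 0.0832 for the miR-23, miR-27 and miR-24 family, -0.25 to 0.20 for miR-26 and -0.0810 to 0.34 for the miR-15 and miR-16 family. For genes of the other table they were -0.18 to 2.24 for Snord83b, -0.20 to 0.33 for mt-Rnr2, -0.0443 to 0.69 for mt-Th, -0.13 to 0.32 for Gm24105, -0.0777 to 0.52 for Rpph1 and -0.0938 to 0.41 for Gm23849. Gm24105, tested with these genes, is annotated as a miRNA.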
